A study of Homo sapiens with 10 samples.

Results

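The genes described here are PTPRR and 9 transcripts known to rise and fall with ERK signalling, namely DUSP4, DUSP5, DUSP6, SPRY2, SPRY4, ETV4, ETV5, SPRED1 and PHLDA1. These 10 genes were taken by symbol from the 60554 genes of the deposited transcript tables, and the estimated counts of all transcripts of a gene were added. The genes were chosen by pathway with the fitted log2 fold changes of g1 and g2 against gCtl already known, among them the large one of PTPRR, so their differences from gCtl are given as a description without a p-value. The difference between the guides was tested, but it follows from the same known fold changes, so its p-values are not independent support.

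Caco-2, a human colon carcinoma line that takes on enterocyte features in culture, carried dCas9-KRAB, a Cas9 that binds without cutting and is fused to a repressor domain. All cells came from 1 monoclonal dCas9-KRAB line, so every group shares that clone and its puromycin selection. The gCtl group received an empty gRNA plasmid (5 libraries), and the g1 (3 libraries) and g2 (2 libraries) groups each received 1 guide against the lncRNA LHFPL3-AS2, all by lentivirus and under hygromycin, and the cells were seeded as monolayers. RNA was sequenced by QuantSeq, whose reads lie close to polyA tails, so a count does not grow with transcript length. The labels do not state whether libraries of a group are separate cultures, so the tests measure only the spread between these libraries, which may be technical.

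In the ERK pathway, receptor tyrosine kinases at the cell surface activate RAS, RAF, MEK and then ERK, which enters the nucleus and drives transcription of growth genes. ERK also induces its own brakes. Dual-specificity phosphatases (DUSPs) remove phosphate from ERK, and Sprouty (SPRY) and SPRED proteins act higher up, on RAS and RAF. PTPRR is a receptor-type tyrosine phosphatase that docks on ERK through a kinase interaction motif and dephosphorylates it. In intestinal epithelium this pathway is known for driving proliferation of the crypt cells.

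Levels are given in RPM, the estimated counts of a gene per 1000000 estimated counts of its library. The libraries held between 3838803 and 5674360 estimated counts in gCtl, 4649985 to 8730468 in g1, and 6130698 and 7325087 in g2. LHFPL3-AS2 itself (chr7:104894628-104926645, minus strand, GRCh38) was not detectably lower with the guides, at 0.841 to 3.73 RPM in gCtl, 2.03 to 3.95 in g1 and 2.16 and 6.01 in g2. Its mean log2(RPM + 1) was higher by 0.47 in the guide libraries (exact two-sided permutation test of g1 and g2 against gCtl, p = 0.19). These levels rest on 4.39 to 44.03 estimated counts a library, and a separate assay of this RNA by qPCR in the study is not analysed here, so groups are named by their labels. Mitochondrial transcripts made up 18.3% to 24% of counts in gCtl, 19% to 20.6% in g1, and 16.8% and 12% in g2. Of 12 intestinal epithelial markers 10 exceeded 3 RPM in at least 1 library, including CDX2, VIL1 and EPCAM, and the 12 summed to 1981 to 2614 RPM in gCtl and 1951 to 2381 RPM in the guide libraries. Among them the enterocyte enzyme SI was at 0 to 0.361 RPM in gCtl and 0.956 to 2.86 RPM in the guide libraries, KRT20 was at 1.08 to 4.22 RPM in gCtl, 1.94 to 4.01 RPM in g1 and 8.97 to 9.97 RPM in g2, and ALPI stayed below 1 RPM. The 6 fibroblast markers summed to 17.6 to 38.5 RPM in gCtl and 6.86 to 19.6 RPM in the guide libraries, with COL3A1 and LUM below 1 RPM throughout and PDGFRA, a receptor tyrosine kinase, making up most of the sum in gCtl at 11.4 to 29.8 RPM. The 4 leukocyte markers, mostly LYZ, summed to 13.7 to 24.01 RPM in gCtl and 12.3 to 29.7 RPM in the guide libraries, PTPRC was at most 1.12 RPM, and CD14 was at 2.47 to 4.0 RPM in gCtl and 0.273 to 1.56 RPM in the guide libraries. Of the 2 endothelial markers VWF was at 0 in gCtl and g2, and PECAM1 was at 2.16 to 3.37 RPM in gCtl, 4.06 to 9.91 RPM in g1 and 2.03 to 4.53 RPM in g2. The 4 neuroendocrine markers summed to 10.1 to 18.2 RPM in gCtl and 4.6 to 12.02 RPM in the guide libraries, with NEUROD1 at 2.37 to 10.7 RPM in gCtl, 0.713 to 1.81 RPM in g1 and 3.41 to 3.43 RPM in g2. The part of these markers in the differences described here was not tested.

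The guide target sites are shown because they define the groups compared. Both lie on the minus strand of chromosome 7 in exon 1 of the 4 exons of the LHFPL3-AS2 transcript ENST00000631061.2, g1 at chr7:104926506-104926528 and g2 at chr7:104926494-104926516 (GRCh38, GENCODE v29), and the bases paired by the guides overlap by 8. Capitals mark the NGG motif next to each site.
g1 site: gaaagtggactactacctcaTGG
g2 site: ctacctcatggcatgttttgAGG

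PTPRR differed most of the 10 genes, being nearly undetected in gCtl and present in every guide library. It was at 1.04, 0.192, 0.361, 0.25 and 0 RPM in the gCtl libraries, at 5.56, 3.01 and 10.4 RPM in those labelled g1 and at 11.6 and 16.5 RPM in those labelled g2. Each guide library lay above each gCtl library, and both g2 libraries lay above all 3 g1 libraries. Over all tested genes, 14.5% had 5 guide libraries that did not overlap the 5 gCtl libraries in RPM. The gCtl values rest on 8 counts in total, 4 of them in gCtl replicate 1, against 137 counts in g1 and 192 in g2. Summed over libraries the level was 30.6 times that of gCtl (95% exact Clopper-Pearson interval 15.4 to 71.5), 21.7 times with g1 (10.7 to 51.3) and 43.3 times with g2 (21.5 to 101.7). These intervals cover counting error only. No gCtl library reached the filter of 3 RPM, so PTPRR was tested only because of its level in the guide libraries.

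Differences across genes were fitted with edgeR on counts scaled by TMM, over 11640 genes that had a coding transcript and passed 3 RPM in 20% or more of the libraries. A gene was called when its adjusted p was at most 0.05 and its fold change at least 1.5. All 10 genes entered the fit. With g1 and g2 libraries as 1 group, 3 of the 10 genes were called, against 19.2% of all tested genes, namely PTPRR as higher and ETV5 and PHLDA1 as lower. The same number was called with g1 alone, against 16.7% of tested genes, and with g2 alone, against 23.7%. These shares stand beside a count that the choice of genes already knew, and nothing is read from them. The median log2 fold change of the 10 genes was 0.25 and that of all tested genes 0.02. The 2 guide comparisons share the gCtl libraries.

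The fitted log2 fold change of PTPRR was 4.86 (standard error, SE, 0.62) with both guides together, 4.27 (0.58) with g1 and 5.46 (0.58) with g2. Leaving out gCtl replicate 1, which held 4 of the 8 control counts, moved these to 5.57, 4.97 and 6.17, and leaving out g1 replicate 3 moved the g1 value to 3.58. The gene (ENSG00000153233.12) lies at chr12:70638073-70920843 on the minus strand, where GENCODE v29 places the pseudogene FAHD2P1 and a small RNA on the opposite strand. The g2 libraries exceeded the g1 libraries by a log2 fold change of 1.19 (SE 0.48, 95% interval 0.17 to 2.21), which did not pass the threshold (adjusted p = 0.169, edgeR quasi-likelihood test). In the order gCtl, g1, g2 of the mean levels, the step from g1 to g2 had an unadjusted p of 0.0249 in edgeR and missed the threshold after adjustment over all tested genes, of which 32.9% had g1 and g2 libraries that did not overlap. The 3 libraries with the highest PTPRR, g1 replicate 3 and both of g2, also gave a larger share of their counts to the 20 most abundant genes (40.1%, 45.2% and 40.5%, against 31.3% to 37.1% in the other libraries), and the part of this in the difference was not tested.

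**Figure D1:**
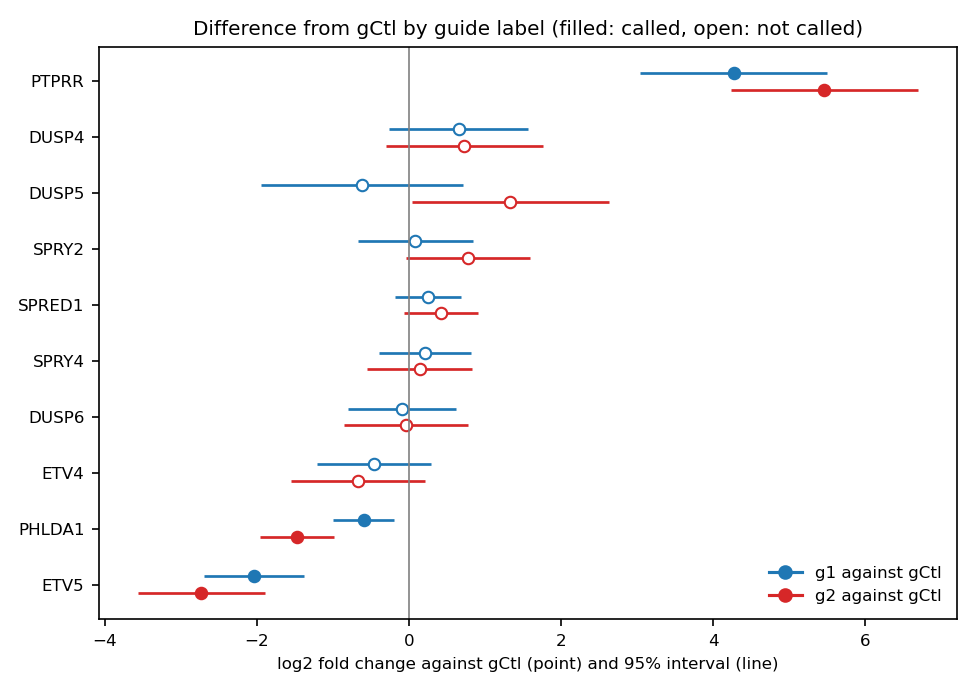
Fitted log2 fold change against gCtl (horizontal axis) with its 95% interval for each of the 10 genes, g1 in blue and g2 in red, filled where called. PTPRR sits at 4.27 and 5.46, ETV5 at -2.04 and -2.73 and PHLDA1 at -0.60 and -1.47, and the open points of the other 7 genes lie between -0.67 and 1.33.

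The PTPRR counts were assigned to several annotated transcripts that differ in their ends. The gene has 11 transcripts in the deposited tables, and 59.9% of its estimated counts over the 10 libraries went to PTPRR-010 (ENST00000549107.5), a transcript of 862 bases and 6 exons without an annotated coding sequence. PTPRR-006, a transcript marked for nonsense-mediated decay, took 13.0%, and the protein-coding transcripts PTPRR-005 and PTPRR-201 took 10.8% and 9.25%. The longest transcript PTPRR-001 was estimated at 0 in every library. In the libraries labelled g1 the share of PTPRR-010 was 77.6%, 67.5% and 43.0%, and in those labelled g2 it was 58.3% and 66.5%. PTPRR-010 thus held the larger part in 4 of the 5 guide libraries. The split is an estimate, since only 113 of the 832 stretches of 31 bases in PTPRR-010 occur in no other PTPRR transcript. How far it depends on the reads lying close to polyA tails, and on the differing transcript lengths, was not tested. When only transcripts of the protein-coding type were counted, PTPRR held 0 counts in gCtl, 11.1 in g1 (all PTPRR-201) and, in g2, 36.4 of PTPRR-005 and 20.03 of PTPRR-201, so no fold is given, and the g1 call was lost.

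The last 30 bases of PTPRR-010 and of the longest transcript PTPRR-001 are shown because the reads lie close to polyA tails. PTPRR-010 ends 1057 bases before the farthest annotated 3' end of the gene and PTPRR-001 ends 9 bases before it. Capitals mark a polyadenylation hexamer (AATAAA or ATTAAA), of which the first sequence holds none.
PTPRR-010 end: caatctcttggggtgattaatcaaattacc
PTPRR-001 end: gtttcatactgccAATAAActcttaatact

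The 250 bases before a PTPRR start site are shown for the gene that differed most. RefSeq promoter windows (GRCh38.p14) were found for 6 of the 10 genes, 10 windows in all, and the one printed, chr12:70754760-70755009 on the minus strand, ends next to the annotated start of PTPRR-201 and PTPRR-003 and overlaps no annotated exon. It is written in lower case throughout because it holds none of the 4 motifs searched. PTPRR-201 and PTPRR-003 took only 9.25% and 6.07% of the PTPRR counts. PTPRR-010, which took 59.9%, starts elsewhere, at chr12:70684896, and none of the windows found covers that start.
PTPRR window: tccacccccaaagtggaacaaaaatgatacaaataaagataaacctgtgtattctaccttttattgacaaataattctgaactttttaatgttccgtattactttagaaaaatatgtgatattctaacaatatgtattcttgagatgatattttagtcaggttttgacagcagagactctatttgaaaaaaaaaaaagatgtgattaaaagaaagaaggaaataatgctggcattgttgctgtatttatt

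The motifs were searched on both strands and do not overlap one another in these windows. The ETS core CGGAAG occurred in the windows of DUSP6 and PHLDA1 and in 16.5% of 35116 promoter windows of the same length. AGGAAG, another ETS form, occurred in those of DUSP6, SPRED1 and SPRY2 and in 28.7% of all windows. The AP-1 motif TGANTCA and the CRE motif TGACGTCA occurred in no window of these genes and in 6.57% and 1.65% of all windows. The printed window was 28% G and C and the other PTPRR windows 35.6% and 44.8%, beside 41.2% to 78.4% in the windows of DUSP6, PHLDA1, SPRED1, SPRY2 and SPRY4.

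By Pearson's r on log2(RPM + 1) over the 10 libraries, the 5 tested genes with the profile most like that of PTPRR were SLC6A20 (r = 0.97), a proline transporter of the gut and kidney, THRB (0.97), a thyroid hormone receptor, MYO1A (0.97), the brush border myosin, SCN2B (0.97), a sodium channel subunit, and GCNT3 (0.96), a mucin-type glycosyltransferase. These values are a description over libraries that fall into 2 groups, so they largely follow the difference between the groups. SLC6A20 was at 8.54 to 10.9 RPM in gCtl and at 18.4 to 52.5 RPM in the guide libraries, with its lowest guide value in g1 replicate 2, as for PTPRR. MYO1A was at 6.0 to 8.86 RPM in gCtl and at 15.7 to 37.0 RPM in the guide libraries, and THRB at 24.1 to 28.9 and 42.8 to 77.3 RPM. SCN2B was at 0.541 to 1.32 RPM in gCtl and 1.97 to 4.35 RPM in the guide libraries. Like PTPRR, it was tested only because of its level in the guide libraries. All 5 genes had guide and gCtl libraries that did not overlap, as had 14.5% of all tested genes. They were chosen for likeness to PTPRR, so nothing is read from this.

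The DUSP transcripts, nuclear and cytoplasmic phosphatases that ERK signalling induces, were not called with either guide. DUSP6, the cytoplasmic phosphatase selective for ERK, was at 77.4, 31.4, 33.9, 48.0 and 21.3 RPM in gCtl, at 37.7, 27.3 and 47.5 RPM in g1 and at 48.9 and 23.8 RPM in g2. The groups overlapped fully, and the log2 fold change with both guides together was -0.07 (95% interval -0.70 to 0.55). DUSP4 (ENSG00000120875.8), a nuclear member, was at 7.03, 3.32, 9.20, 9.0 and 11.8 RPM in gCtl, at 7.99, 4.73 and 22.3 RPM in g1 and at 13.1 and 11.0 RPM in g2. Its g1 value depended on 1 library, with a log2 fold change of 0.65 (95% interval -0.26 to 1.56) that became -0.35 without g1 replicate 3.

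DUSP5 (ENSG00000138166.5), a nuclear phosphatase that also anchors ERK, rested on few counts, with 70 counts over gCtl, 37 over g1 and 84 over g2. It was at 4.69, 2.68, 4.87, 1.0 and 1.23 RPM in gCtl, at 1.56, 0.430 and 2.98 RPM in g1 and at 9.95 and 3.14 RPM in g2. The log2 fold change was -0.62 with g1 (95% interval -1.94 to 0.70) and 1.33 with g2 (0.04 to 2.63). The g2 libraries lay above the g1 libraries by a log2 fold change of 1.95 (95% interval 0.47 to 3.43), which missed the threshold (adjusted p = 0.12, edgeR quasi-likelihood test). The g2 value became 0.25 without g2 replicate 1.

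The brakes on RAS and RAF were not called either. SPRY2 was at 2.68 to 9.69 RPM in gCtl, 5.5 to 7.99 RPM in g1 and 7.50 and 12.4 RPM in g2, a log2 fold change of 0.40 (95% interval -0.31 to 1.11). SPRY4 was at 6.87 to 12.8 RPM in gCtl, 7.65 to 13.2 RPM in g1 and 12.1 and 6.69 RPM in g2, a log2 fold change of 0.18 (-0.35 to 0.71). SPRED1, a membrane-bound relative of the Sprouty proteins, was at 11.2 to 18.0 RPM in gCtl, 14.4 to 15.9 RPM in g1 and 17.5 and 14.1 RPM in g2, a log2 fold change of 0.32 (-0.07 to 0.71). Each of the 3 genes overlapped between gCtl and either guide, and the intervals are for both guides together. A rise of up to 0.71 on the log2 scale lies inside the intervals of SPRY4 and SPRED1, and one of up to 1.11 inside that of SPRY2.

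ETV5 and ETV4 are PEA3-type ETS transcription factors whose transcripts rise with ERK activity. ETV5 was called lower with either guide, and ETV4 was not called. ETV5 (ENSG00000244405.7; chr3:186046308-186110318, minus strand) was at 17.4, 15.7, 15.5, 15.5 and 19.7 RPM in gCtl, at 6.78, 3.23 and 2.18 RPM in g1 and at 2.77 and 1.77 RPM in g2. Every guide library lay below every gCtl library, where 14.5% of all tested genes had guide libraries that did not overlap gCtl in RPM. The counts behind this were 409 over gCtl, 73 over g1 and 30 over g2. The 3 lowest libraries were g1 replicate 3 and both of g2, those with the largest share of counts in the 20 most abundant genes, and its part in this was not tested. The log2 fold change was -2.28 (SE 0.29) with both guides together, -2.04 (0.31) with g1 and -2.73 (0.39) with g2, a level 4.84 times lower with both. The guides did not differ by the test (log2 fold change of g2 against g1 -0.69, 95% interval -1.60 to 0.22, adjusted p = 0.386, edgeR quasi-likelihood test). Most ETV5 counts, 91.4%, went to the coding transcript ETV5-001, and the gene overlaps DGKG on the same strand and ETV5-AS1 on the opposite one.

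ETV4 (ENSG00000175832.12) was at 7.29, 10.4, 5.23, 7.25 and 3.35 RPM in gCtl, at 4.87, 4.52 and 4.58 RPM in g1 and at 4.89 and 2.60 RPM in g2. Of the 5 guide libraries 4 lay inside the gCtl range. The log2 fold change was -0.54 (95% interval -1.19 to 0.10) and was not called. Whether ETV5 and ETV4 differ from each other in their response was not tested.

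PHLDA1, a pleckstrin homology-like protein whose transcript ERK signalling induces, was lower with both guides and lowest with g2. It was at 120.0, 76.5, 88.4, 93.3 and 83.9 RPM in gCtl, at 77.3, 57.4 and 43.9 RPM in g1 and at 35.0 and 24.4 RPM in g2. Both g2 libraries lay below all others, and g1 replicate 1 lay just inside the gCtl range. Over all tested genes, 38.2% had g2 libraries that did not overlap gCtl in RPM. The log2 fold change was -0.89 (SE 0.22) with both guides together, -0.60 (0.19) with g1 and -1.47 (0.23) with g2. The g1 call held with only 5 of the 10 libraries left out in turn, being lost without gCtl replicate 1, 3 or 4 and without g1 replicate 2 or 3, where the value ranged from -0.62 to -0.47.

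PHLDA1 was the 1 gene of the 10 that differed between the guides, where 4.97% of tested genes were called. The g2 libraries were lower than the g1 libraries by a log2 fold change of -0.87 (SE 0.24, adjusted p = 0.0479, edgeR quasi-likelihood test), with both g2 libraries below all 3 g1 libraries, where 32.9% of tested genes had guide groups that did not overlap. The adjusted p lies next to the threshold, and the call was lost with 6 of the 10 libraries left out in turn, gCtl replicates 2, 3 and 4, g1 replicates 1 and 2 and g2 replicate 2, where the value ranged from -0.90 to -0.59. The mitochondrial share was also lower in g2 (16.8% and 12%) than in g1 (19% to 20.6%), and the 3 libraries with the lowest PHLDA1 were those with the largest share of counts in the 20 most abundant genes, g1 replicate 3 and both of g2. The part of either in this difference was not tested. PHLDA1 (ENSG00000139289.13; chr12:76025447-76033932, minus strand) overlaps antisense genes, as do DUSP6 and SPRY4, while ETV4 overlaps DHX8 on the opposite strand. Whether the counting used strand is not given in the sources used here, so reads of such partners cannot be told apart.

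The rest of the pathway was read from 6 lists of 74 genes, of which 62 were tested. These lists were also drawn up with earlier results of these data known, so the adjusted p-values of their genes, taken over all tested genes, are not independent support. With both guides together 13 of the 62 (21.0%) were called, 7 higher and 6 lower, close to the 19.2% of all tested genes. With g1 13 (21.0%) were called, beside 16.7% of all tested genes, and with g2 14 (22.6%), beside 23.7%. Of the 13, 4 had passed the 3 RPM filter only through the group where they were higher, EPHA4 and ETS1 through the guide libraries and DUSP9 and ELK1 through gCtl, so these are described without a p-value. The median log2 fold change of the 62 genes was 0.11, beside 0.02 for all tested genes.

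Among the other phosphatases for MAP kinases, 4 of 9 were tested, and DUSP8 was higher and DUSP9 lower. DUSP8, which acts mainly on JNK and p38, was at 7.02 ± 2.43 RPM (SD, n = 5) in gCtl and, in the guide libraries, 13.3 ± 3.56 RPM (SD, n = 5), a log2 fold change of 1.03 (SE 0.29, adjusted p = 0.0188, edgeR). DUSP9, an ERK phosphatase of the cytoplasm, was at 5.86 ± 1.43 RPM (SD, n = 5) and 2.27 ± 0.994 RPM (SD, n = 5), a fitted log2 fold change of -1.28, with no guide library above 3 RPM. The DUSP9 call with both guides together was lost without gCtl replicate 2, 3 or 4. By guide, DUSP9 was called with g2 (-1.6) and not with g1 (-1.1). Its g2 value ranged from -3.2 to -0.79 with a library left out. DUSP8 was called with g2 (1.18) and with g1 (0.93, adjusted p = 0.049, edgeR). Its g1 call was lost with library totals, in limma and with protein-coding transcripts only. It was also lost without gCtl replicate 1, 2, 3 or 4 and without g1 replicate 1 or 3. PTPN5, DUSP1, DUSP2, DUSP7 and DUSP10 did not pass the filter, and PTPN7 and DUSP16 were not called.

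Of 11 tested brakes on RAS and RAF, PEBP1 alone (9.09%) was called with both guides together when all transcripts were counted. Of all tested genes 19.2% were called. PEBP1 binds RAF and keeps it from MEK. It was at 209.6 ± 48.3 RPM (SD, n = 5) in gCtl and, in the guide libraries, 129.8 ± 15.1 RPM (SD, n = 5), a log2 fold change of -0.60 (SE 0.16, adjusted p = 0.0128, edgeR), and the call was lost without gCtl replicate 1 or 4 or g1 replicate 3. By guide, PEBP1 was called with g1 (-0.66) and not with g2 (-0.51, adjusted p = 0.0722, edgeR), and CBL, a ubiquitin ligase for receptor tyrosine kinases, was called lower with g2 (-0.64, adjusted p = 0.0184, edgeR). With protein-coding transcripts only, PEBP1 (-0.56) was not called and NF1 was called lower with both guides together at -0.63, where all its transcripts gave 0.07. NF1, a GTPase-activating protein for RAS, was the 1 list gene of 62 (1.61%) called between the guides, beside 4.97% of all tested genes. It was at 202.9 ± 18.1 RPM (SD, n = 3) in g1 and 123.4 ± 20.3 RPM (SD, n = 2) in g2, a log2 fold change of g2 against g1 of -0.60 (SE 0.16, adjusted p = 0.046, edgeR). That call held in 2 of the 10 fits with a library left out, those without gCtl replicate 5 and without g2 replicate 2.

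In the core from RAS to ERK, all 19 genes were tested. HRAS alone (5.26%) was called with both guides together, beside 19.2% of all tested genes. HRAS fell from 19.03 ± 3.65 RPM (SD, n = 5) to 7.74 ± 1.66 RPM (SD, n = 5), a log2 fold change of -1.20 (SE 0.21, adjusted p = 0.00136, edgeR). MAPK3, MAP2K1 and MAP2K2, kinases of the cascade, were not called, with log2 fold changes of 0.54, -0.35 and -0.58. With protein-coding transcripts only, HRAS did not pass the filter. With g1 alone 3 of the 19 (15.8%) were called, beside 16.7% of all tested genes, namely HRAS, MAP2K2 lower (-1.03, adjusted p = 0.0219, edgeR) and KSR1 higher (0.72). With g2 alone 5 (26.3%) were called, beside 23.7% of all tested genes, namely HRAS, MAPK3 higher (1.15, adjusted p = 0.0368, edgeR), GAB1 (0.67) and SHOC2 (0.62) higher and FRS2 lower (-0.84). MAPK3 and MAP2K2 were not called in the test of g2 against g1.

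Of 7 tested transcripts that ERK is also known to induce, 3 were called higher with both guides together, beside 19.2% of all tested genes in either direction, and the other 4 were not called. With g1 alone 3 (42.9%) were called, beside 16.7% of all tested genes, and with g2 alone 2 (28.6%), beside 23.7%. EPHA4, an ephrin receptor, was at 2.51 ± 0.599 RPM (SD, n = 5) in gCtl and, in the guide libraries, 6.73 ± 4.30 RPM (SD, n = 5), a fitted log2 fold change of 1.45, with 1 of 5 gCtl libraries above 3 RPM. That value ranged from 1.01 to 2.45 under the alternatives. By guide, EPHA4 was called with g1 (1.7), though not without g1 replicate 1, and was not called with g2 (1.0). Its g1 libraries ranged from 3.55 to 14.07 RPM. MAFF, a small Maf transcription factor, had a log2 fold change of 1.12 (SE 0.22, adjusted p = 0.00247, edgeR), and IER3, an immediate early gene, one of 0.97 (SE 0.21, adjusted p = 0.0054). MAFF and IER3 stayed called with each library left out in turn, but MAFF was not called with protein-coding transcripts only (0.93). EGR1 (0.49), FOSL1 (0.25), CCND1 (-0.23) and EPHA2 (-0.63) were not called.

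Among ERK substrates and ETS factors, 11 of 13 were tested. ELK1, an ETS factor that ERK phosphorylates, was at 4.58 ± 2.26 RPM (SD, n = 5) in gCtl and, in the guide libraries, 1.1 ± 0.872 RPM (SD, n = 5), a fitted log2 fold change of -1.86, and the call was lost without gCtl replicate 1 or 4. The fitted value was -3.02 with g1, which was called, and -0.98 with g2, which was not. No guide library lay above 3 RPM for ELK1, and g2 against g1 was not called. RPS6KA5, a nuclear kinase that ERK activates, had a log2 fold change of 0.66 (SE 0.20, adjusted p = 0.0272, edgeR), and the call was lost without gCtl replicate 1 or 3 or g2 replicate 2, with library totals (0.56) and in limma (0.54). It was called with g2 (0.90) and not with g1 (0.46, adjusted p = 0.126, edgeR). The g2 libraries were at 36.1 and 64.7 RPM, and the RPS6KA5 value with g2 ranged from 0.456 to 1.235 with a library left out. ETS1, with no gCtl library above 3 RPM, had a fitted value of 2.15, but g1 replicate 3 held 20.4 RPM, and the call was lost without that library and without gCtl replicate 1, 2, 3 or 5. With g2 it was not called (1.56).

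Of the 10 receptor tyrosine kinases, all tested, 3 were called with both guides together, beside 19.2% of all tested genes. FGFR1 fell from 65.0 ± 13.5 RPM (SD, n = 5) in gCtl to 18.7 ± 5.77 RPM (SD, n = 5) in the guide libraries, a log2 fold change of -1.71 (SE 0.20, adjusted p = 9.2e-05, edgeR). FGFR4 had a log2 fold change of -1.77 (SE 0.44, adjusted p = 0.0102). ERBB3, the neuregulin receptor, rose from 47.8 ± 5.23 RPM (SD, n = 5) to 85.4 ± 15.8 RPM (SD, n = 5), a log2 fold change of 0.93 (SE 0.16, adjusted p = 0.000962). These 3 calls, with both guides together, held with each library left out in turn. FGFR4 was called with g1 (-1.92), though not without g1 replicate 1 or 3, and was not called with g2 (-1.57, adjusted p = 0.0629, edgeR). Its g2 value ranged from -2.41 to -0.995 with a library left out. MET was called higher with g2 (0.72, adjusted p = 0.0171, edgeR) and not with g1 (0.26). With both guides together EGFR (-0.08) and ERBB2 (0.01) were not called.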

How the data were processed

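The authors sequenced QuantSeq 3' libraries and estimated transcript abundance with kallisto (version given as 42.5 in the submitters' processing notes). They deposited for each library the estimated counts of 199169 transcripts, neither normalized nor pooled. Whether reads were counted by strand is not given in the sources used here. Transcripts of a gene were summed, and the sums were rounded. RPM used the total of a library. Genes that had a coding transcript and passed 3 RPM in 20% or more of the 10 libraries entered edgeR 4.0.16 (glmQLFit and glmQLFTest, TMM, Benjamini-Hochberg adjustment) in R 4.3.3. One fit compared g1 and g2 together with gCtl, and another had 3 groups. The common biological coefficient of variation was 0.205. The exact permutation test and intervals used scipy 1.17.1. The scripts were tested on simulated data.

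The genes and lists were chosen with earlier results of these data known. Named in each list are up to 4 called genes with the largest absolute log2 fold change with both guides together and any gene called between the guides, and the 5 genes most like PTPRR by Pearson's r. Other genes named were chosen after their values were seen. Alternatives were DESeq2 1.42.0, DESeq2 size factors in edgeR, library totals, limma 3.58.1 on log2(RPM + 1), other filters, protein-coding transcripts only, other call rules, only the 2 groups compared and each library left out. Total counts between 3838803 and 8730468 per library make 1 count 0.114 to 0.261 RPM. In the 14 pairs of libraries of 1 group, counts differed by more than sampling noise (chi-square per degree of freedom 4.79 to 29.9), so no pair was merged as the same library. Gene positions came from GENCODE v29 (GRCh38). The authors' gene IDs match it, apart from the version of SPRY2 and SPRY4.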

Additional observations from a re-analysis of the deposited data

Results flagged for a closer look

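PHLDA1 was lower in the libraries labelled g2 than in those labelled g1, with a log2 fold change of -0.87 (adjusted p = 0.0479, edgeR quasi-likelihood test). It stands here because the effects of the guides against the same control differed by a direct test, and it is the 1 of the 10 genes for which they did. The fold changes of both guides were known when the genes were chosen, so this p is not independent support. The PHLDA1 call held under 6 of the 10 alternatives and was lost in several fits with a library left out, as given above. By Dixon's test no single gCtl library stood apart from the other 4 in any of 11 genes checked, LHFPL3-AS2 included, although gCtl replicate 1 was the highest of the 5 for PTPRR (1.04 RPM against at most 0.361 RPM), PHLDA1, DUSP6, SPRY4 and SPRED1.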

How the results depend on the processing

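No paired analysis was possible because the labels carry no replicate numbers, and those used here, given in the order of the samples, only name the libraries. PTPRR, ETV5 and PHLDA1 kept their directions under every alternative and in every fit that left out 1 library. With both guides together, the number of the 10 genes called was 2 to 3 under the alternatives. With g1 it was 1 with protein-coding transcripts only, where the calls of PTPRR and PHLDA1 were lost, and 2 to 3 with a library left out. With g2 it was 3 to 4, since DUSP5 was also called with genes of all biotypes. Between the guides it was 0 with DESeq2 size factors, protein-coding transcripts only, a test against a fold of 1.5 or only the 2 groups compared, 2 with genes of all biotypes, and 0 to 1 with a library left out, while 3 of the 10 had an unadjusted p under 0.05 in edgeR (21.0% of all tested genes) and DESeq2 called PHLDA1. Tested against a fold of 1.5, the list genes called numbered 2 with both guides together, 4 with g1 and 3 with g2, and 8 to 14 with g1 when a library was left out. Between the guides they numbered 0 with DESeq2 size factors, genes of all biotypes, protein-coding transcripts only, a test against a fold of 1.5 or only the 2 groups, 2 with library totals or limma, 3 with DESeq2, and 0 to 3 with a library left out. The causes were not tested. ETS1 with g1 ranged from -0.019 without g1 replicate 3 to 2.94 when a library was left out. PTPRR was 2.79 with both guides together on limma's log2(RPM + 1) scale, which understates the change of low genes. Library totals alone moved the median of all tested genes with g2 to -0.16, and with that scaling SPRY4 with g2 was -0.05. Leaving out a g2 library leaves 1, which is assumed to vary like the other groups. Depth limits PTPRR in gCtl (8 counts), ETV5 in g2 (30) and DUSP5 in g1 (37).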
